A study of Mus musculus with 96 samples.

Results

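The 66 genes described here are the glutathione transferase, aldo-keto reductase 1 and aldehyde dehydrogenase genes of the mouse together with 6 redox enzymes. They were chosen by name: every protein-coding gene whose symbol starts with Gst (23 genes), Akr1 (16) or Aldh (21), plus Nqo1, Hmox1, Gclc, Gclm, Txnrd1 and Srxn1. They are 66 of 37945 genes in the table, of which 21431 are protein-coding. No measured value entered the naming rule, but earlier results of these data were known when it was chosen. Total RNA of mineralizing osteoblast cultures was sequenced for 42 strains of the Collaborative Cross, a panel of inbred mouse strains bred from a shared set of founders. Each group is 1 strain, named by its CC number, with no treatment that differs between groups. All cultures came from the skull vault (calvaria) of pups aged 3 to 5 days, from which cells were released by enzyme digestion. The cells grew to confluence and were then driven to mineralize over 10 days with ascorbic acid plus beta-glycerol phosphate. There were 95 independent libraries after 2 runs of 1 CC030 sample were averaged: 2 each for 31 strains, 3 for 2 strains, 4 for 6 strains and 1 for 3 strains. The labels give neither sex nor litter. Whether the libraries of one strain are separate animals or cultures is not said, and the spread that p-values rest on may therefore be technical.

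Glutathione transferases (Gst) join the tripeptide glutathione to reactive, often electrophilic molecules, which cells then export. Aldo-keto reductases reduce aldehydes and ketones with NADPH, and aldehyde dehydrogenases oxidise aldehydes to acids, among them retinaldehyde to retinoic acid. The transcription factor Nrf2 (encoded by Nfe2l2) is held at a low level by Keap1 and, once released under oxidative stress, binds antioxidant response elements near genes such as Nqo1, Hmox1, Gclc, Gclm, Txnrd1 and Srxn1. In bone, reactive oxygen species act on both the cells that build and the cells that resorb it.

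Of the 66 genes, 54 matched a RefSeq promoter window (GRCm38.p6) from 250 bases before to 50 bases after an annotated start. The core letters of the antioxidant response element, TGACNNNGC on either strand, occurred in at least 1 window of 10 of these 54 genes (18.5%) and in 14.0% of 27025 genes with such a window. The 10 genes were Txnrd1, Gclm, Srxn1, Gstm5, Gstm7, Gsta3, Aldh1a2, Aldh9a1, Akr1c19 and Akr1cl. A match describes letters and does not show a binding site, and genes without one may hold the letters elsewhere. Upstream stretches of 5 genes are shown because their levels are described further on. They run 5′ to 3′ along the gene's own strand, with the match in capitals (on the reverse strand it reads GCNNNGTCA).
Txnrd1 (chr10:82859074-82859162, plus strand): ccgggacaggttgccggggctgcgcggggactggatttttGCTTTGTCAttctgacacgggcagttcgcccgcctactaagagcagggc
Gclm (chr3:122245383-122245471, plus strand): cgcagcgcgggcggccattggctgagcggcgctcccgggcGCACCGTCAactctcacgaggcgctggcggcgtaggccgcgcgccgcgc
Gstm7 (chr3:107931695-107931783, minus strand): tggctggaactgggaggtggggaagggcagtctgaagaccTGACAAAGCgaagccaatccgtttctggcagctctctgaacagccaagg
Gstm5 (chr3:107895772-107895853, plus strand): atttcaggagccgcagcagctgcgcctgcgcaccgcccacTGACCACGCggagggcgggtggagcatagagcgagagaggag
Aldh1a2 (chr9:71215637-71215725, plus strand): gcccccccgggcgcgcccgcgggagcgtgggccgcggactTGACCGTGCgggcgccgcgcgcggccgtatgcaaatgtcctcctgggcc

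Levels are in scaled TPM, that is TPM (a length-corrected share of all transcripts in a library) divided by a scaling factor per library. Estimated depth ran from 21.0 to 40.1 Mreads (1 Mread is 1000000 reads) per library (median 27.8), except 1 CC075 library at 83.6. The 15 osteoblast markers summed to 12100 to 29500 scaled TPM over strains, with Col1a2 (median 7050), Ibsp (1610) and Bglap (825) among them, so the cultures carried the labelled identity. The 14 macrophage markers summed to 65.3 scaled TPM in CC005 and 5070 in CC030 (median 494). Endothelial, erythroid, epidermal and neural markers stayed at or under 9.44 scaled TPM in sum in each strain, adipocyte markers ran from 11.5 to 145, chondrocyte markers from 14.6 to 107, and smooth muscle markers from 245 to 1660. In bulk RNA, fewer cells of a type and less RNA per cell cannot be told apart. The first library of CC030 and the first of CC051 stood apart from the second of the same strain. Their osteoblast scores (mean z over the markers) were -2.64 and -2.92, against -1.07 and 0.68. In CC071 both libraries were low, at -1.78 and -2.17.

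A gene was tested if it reached 0.5 TPM in 2 or more libraries, which 52 of the 66 did. Strain explained a significant part of the variation in 49 of these 52 genes (94.2%) by limma's moderated F test at an adjusted p of 0.05 or less. The same test called 81.6% of all 15760 genes tested and 86.1% of protein-coding ones, so most genes in these cultures varied by strain. Sample titles carry a number whose meaning is not stated; in the 20 strains whose libraries were numbered 20 or more apart, 38 of the 52 genes passed (73.1%, against 41.2% of all genes). All 19 tested Gst genes passed, as did 8 of 9 Akr1 genes, 17 of 18 Aldh genes and 5 of the 6 redox enzymes. Gclc (adjusted p = 0.173), Aldh16a1 (0.145) and Akr1c18 (0.0782) did not pass. Of the 35 genes at 0.5 TPM or more in every library, 33 passed (94.3%), beside 85.9% of the 10594 genes of all kinds at that level. The median share of variance lying between strains (intraclass correlation) was 0.648 over the 52 genes and 0.472 over all genes. It was 0.78 for Gst, 0.64 for Akr1, 0.616 for Aldh and 0.443 for the redox enzymes. The median difference between the highest and the lowest strain mean was 2.98-fold for the 52 genes and 2.03-fold for all genes.

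**Figure D1:**
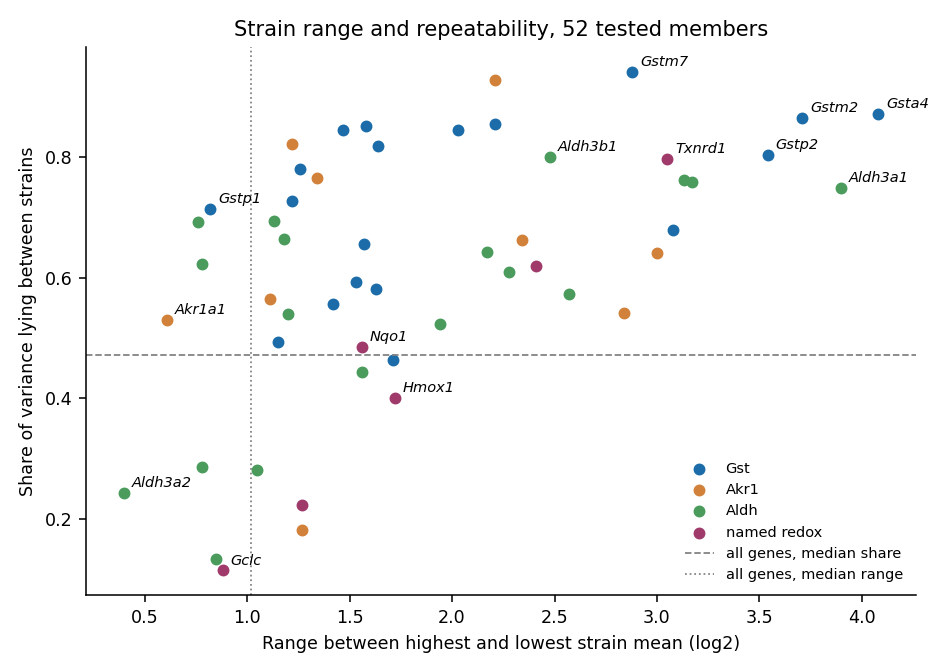
Each point is 1 of the 52 tested genes, coloured by family, with the range between the highest and the lowest strain mean in log2(scaled TPM + 0.5) units on the x axis and the share of variance between strains on the y axis. Dashed and dotted lines mark the medians over all genes, 0.472 and 1.02; Gstm7 has the highest share (0.94), Gsta4 the widest range (4.08), and Gclc the lowest share (0.115).

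The other 14 genes stayed under the filter: Aldh8a1, Aldh3b2, Aldh3b3, Gsta2, Gstm3, Gstp3, Gstt4, Akr1c6, Akr1c12, Akr1c19, Akr1c20, Akr1c21, Akr1cl and Akr1d1. Akr1c20 was listed at 0 in all 95 libraries. Of those left out, Aldh3b2 came nearest to the threshold, with a highest library at 0.385 scaled TPM, and Gsta2 followed at 0.358. Just inside were Akr1c18, with 2 libraries at 0.5 TPM or more, and Akr1b7, with 4. Genes that passed through few libraries had to vary, which also holds for Gsta1 (8 libraries) and Aldh1a7 (10).

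At the top of the abundance order stood Akr1a1, an aldehyde reductase that takes part in vitamin C synthesis in mice, with a median of 244 scaled TPM over strains. Gstp1, a cytosolic pi-class transferase, followed at 116. Next came the heme-degrading enzyme Hmox1 at 60.1 and the mu-class transferase Gstm2 at 48.3. Aldh18a1, which makes the proline precursor pyrroline-5-carboxylate, stood at 45.6, the mitochondrial acetaldehyde dehydrogenase Aldh2 at 44.7, the mitochondrial folate enzyme Aldh1l2 at 43.4, and Gstm5 at 42.5. TPM is corrected for length, so these levels can be set side by side, but the strain ranges of the genes from Hmox1 to Gstm5 overlap. The range of Gstp1 also overlaps those of Hmox1 and Gstm2. Akr1a1 made up 73.3% to 85.4% of the summed Akr1 level in each strain. Gstp1 made up 25.9% to 45.7% of the summed Gst level, which ran from 266 scaled TPM in CC012 to 478 in CC009. In the Aldh family, Aldh18a1, its highest by median, held 12.2% to 28.4%. It did not lead in every strain: in CC044, Aldh1l2 stood at 76.4 of a summed 250 scaled TPM.

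On the log2(scaled TPM + 0.5) scale the widest range belonged to Gsta4 (ENSMUSG00000032348), an alpha-class transferase known for conjugating the lipid peroxidation product 4-hydroxynonenal. The plain ratio of strain means was larger for low genes such as Aldh3a1 (0.187 to 9.77 scaled TPM). The 4 libraries of CC004 read 19.9, 20, 10.4 and 11.9 scaled TPM, while the pair of CC005 read 0.463 and 0.368. CC005 and CC043 (strain means 0.416 and 0.501) sat apart from the next strain, CC061, at 1.09. The means of CC004 (15.5 ± 5.11, SD, n = 4) and CC005 (0.416 ± 0.0674, n = 2) differed by 4.08 on the log2 scale, and the strain test gave an adjusted p of 1.87e-18 (limma). Against the mean of the other strains, 9 strains were higher and 9 lower. Its neighbour Gsta1, which shares 46.6% of its 50-base stretches with Gsta2, stayed low (median 0.115), and Gclc lies 4 protein-coding genes away without a strain effect that passed.

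**Figure D2:**
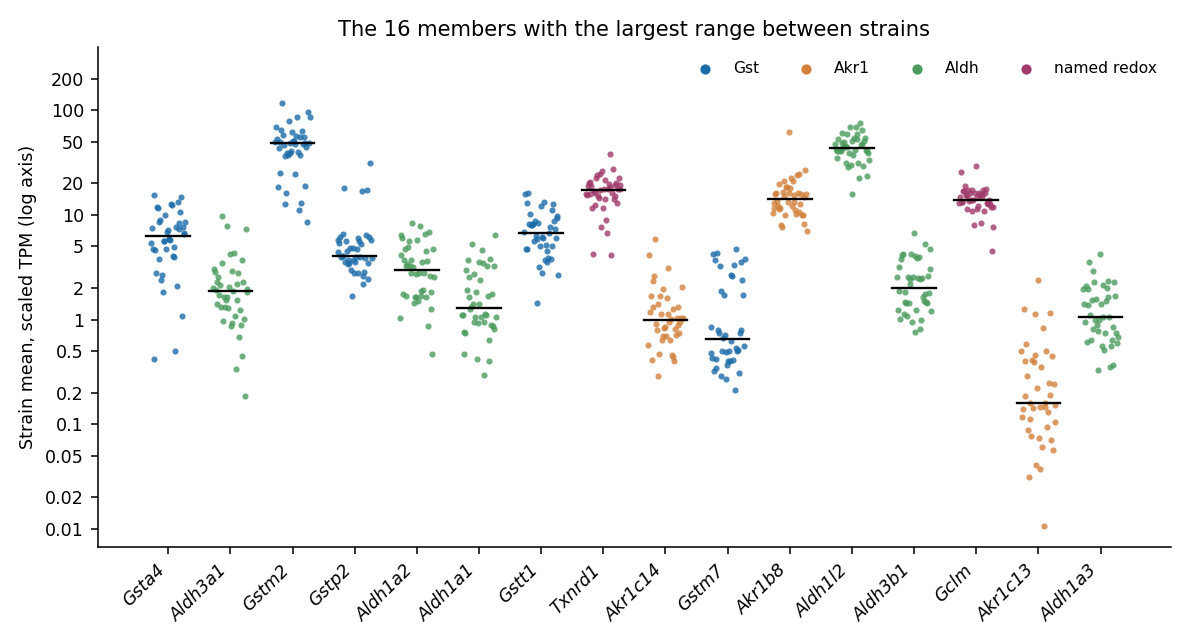
Points are the 42 strain means of the 16 tested genes with the widest range, in scaled TPM on a log axis, coloured by family, with the median as a bar. Gsta4 spans 0.416 to 15.5, Gstm7 splits at a gap between 0.848 and 1.71, and 4 strains stand apart in Gstp2.

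The mu-class transferases Gstm5, Gstm7, Gstm6, Gstm3, Gstm2, Gstm1 and Gstm4 lie side by side on chromosome 3 in that order, with no other protein-coding gene between them (RefSeq, GRCm38.p6). All tested genes of this cluster passed the strain test. Gstm2 (ENSMUSG00000040562) was lowest in CC065, at 7.52 and 9.57 scaled TPM, and highest in CC009, at 110 and 124 (8.55 ± 1.45 and 117 ± 10.1, SD, n = 2 each; log2 range 3.71, adjusted p = 7.1e-18 by limma). Gstm4 ranged from 2.79 ± 0.139 (n = 2) in CC043 to 9.37 ± 0.914 (n = 4) in CC004 among replicated strains. Gstm7 read 5.02 and 4.46 in CC045 and 0.149 and 0.275 in CC043, and strain accounted for 0.94 of its variance, the highest share of the 52 genes (adjusted p = 1.34e-26).

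Gstm7 split the strains at a gap, and the order of the strains in Gstm2 and Gstm4 was set against this split. Gstm7 lay between 1.71 and 4.74 scaled TPM in 14 strains and between 0.212 and 0.848 in the other 28, with none between. Those 14 strains were the 9 lowest and the 5 highest in Gstm2. The 9 strains lowest in Gstm2 (8.55 to 25.3, next strain 36.3) were also the 9 highest in Gstm4 (6.04 to 9.37), although the tenth strain in Gstm4, CC009, stood at 6.03 and so at the same level. The 5 highest in Gstm2 were CC009, CC071, CC040, CC075 and CC023 (78.7 to 117, next strain 70.0). Over the 42 strain means, r was 0.84 between Gstm4 and Gstm7 and -0.66 between Gstm2 and Gstm4, the highest and the lowest value among all 1326 pairs. These sets were drawn after the values were seen, so they carry no test. The 3 genes share under 1% of their 50-base stretches with one another, and strain genotypes were not used here.

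**Figure D3:**
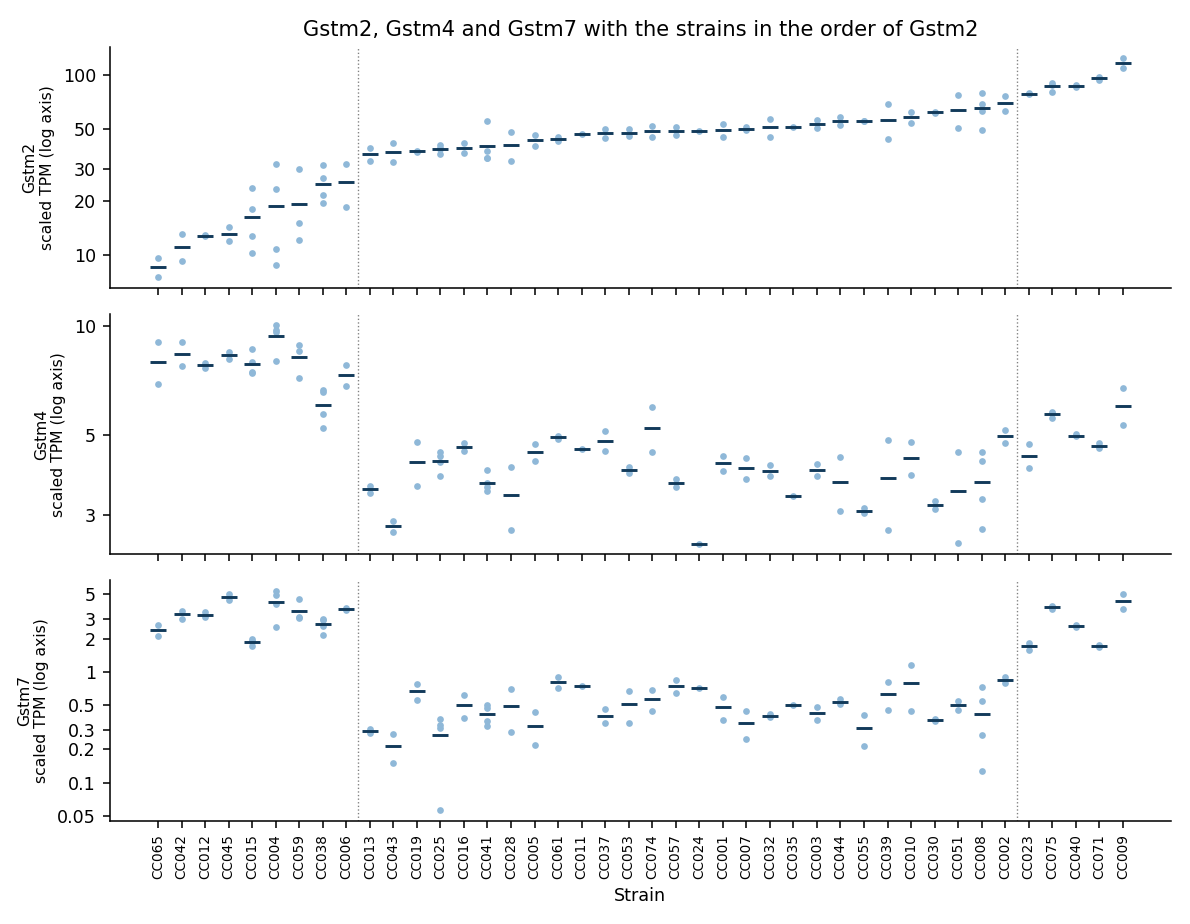
Gstm2, Gstm4 and Gstm7 in scaled TPM on log axes, with strains along the x axis in the order of Gstm2; dots are libraries and dashes strain means. Dotted lines set off the 9 strains lowest and the 5 highest in Gstm2, which together are the 14 strains at 1.71 or above in Gstm7.

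Reads of Gstp1 and Gstp2 are hard to separate, since 62.3% of Gstp1 and 64.3% of Gstp2 50-base stretches are shared. Gstp2 had a median of 4.08 scaled TPM, and 4 strains stood apart: CC071 (26.8 and 35.7), CC009 (12.7 and 23.5), CC057 (17.7 and 16.9) and CC043 (16.8 and 17.2), with the next strain, CC007, at 6.56. Gstp2 alone varied by 3.54 on the log2 scale (adjusted p = 5.13e-14, limma) and Gstp1 by 0.82 (1.36e-09). With both added together the range was 0.93, from 89.1 in CC030 to 170 in CC043 (5.27e-11), so the size of the Gstp2 difference is uncertain. The theta-class transferases on chromosome 10 varied too. Gstt1 read 16.9 and 14.9 in CC002 and 1.48 and 1.38 in CC023 (log2 range 3.08, adjusted p = 3.09e-09), and Gstt2 and Gstt3 were both highest in CC038, at 4.91 ± 0.793 and 8.75 ± 1.5 (SD, n = 4). Gstt1 and Gstt3 followed each other over strains with r = 0.70. Gstk1, the kappa-class enzyme of mitochondria and peroxisomes, ranged from 3.5 ± 0.628 (n = 4) in CC015 to 11.8 ± 0.696 (n = 2) in CC061. Gstz1, which acts in tyrosine breakdown, ranged from 9.49 ± 1.73 (n = 2) in CC030 to 27 ± 0.603 (n = 3) in CC075.

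For some Gst genes the mean make-up of their transcripts also differed between strains, in places with a wide spread between libraries. One protein-coding transcript of the Gst-domain gene Gstcd made up 88.5 ± 12.3% (SD, n = 2) of the gene's TPM in CC009. In CC075 it made up 31.4 ± 1.8% (n = 3). One protein-coding Gstm4 transcript made up 98.4 ± 2.05% in CC042 and 55.4 ± 18.5% in CC055 (n = 2 each). These shares rest on the authors' division of reads between transcripts and were not tested.

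Among the aldehyde dehydrogenases, Aldh3a1, an enzyme abundant in cornea and stomach, had the widest range (log2 3.90, adjusted p = 1.53e-11). It read 10.1 and 9.45 scaled TPM in CC012 and 0.181 and 0.192 in CC065. Its direct neighbour Aldh3a2, which oxidises fatty aldehydes, had the narrowest range of all 52 genes (0.40, adjusted p = 0.0499), and its call was lost in 10 alternatives, with an adjusted p of 0.0503 to 0.656. The retinaldehyde dehydrogenases Aldh1a1, Aldh1a2 and Aldh1a3 were low but strain-dependent. Aldh1a2 read 9.33 and 7.35 in CC019 and 0.438 and 0.51 in CC071 (log2 range 3.17, adjusted p = 5.63e-12). Aldh1a1 read 6.59 and 6.37 in CC074 and 0.326 and 0.264 in CC040 (3.13, adjusted p = 4.57e-12). Aldh1a3 was highest in CC030, where the libraries differed widely (1.68 and 6.86), and lowest in CC025 (0.329 ± 0.117, n = 4). None of the 3 shared its highest or its lowest strain with another.

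Akr1c14, a 3-alpha-hydroxysteroid dehydrogenase, was the most variable aldo-keto reductase: it read 5.06 and 6.72 scaled TPM in CC009 and 0.31 and 0.274 in CC013 (log2 range 3.00, adjusted p = 3.65e-08, limma). Akr1e1 had the highest strain share of its family (0.927), from 1.59 ± 0.113 (n = 2) in CC071 to 9.16 ± 0.745 (n = 3) in CC059. Akr1b3, the aldose reductase of the polyol pathway, ranged from 19 ± 3.26 in CC001 to 41.3 ± 1.65 in CC074 (n = 2 each) by mean log2 value. CC030 reached a higher plain mean (43.3) through 1 library at 56.6, the other being 30.1. After Aldh3a2, the narrowest ranges on the log2(scaled TPM + 0.5) scale were those of Akr1a1 (0.61), Aldh5a1, which degrades succinic semialdehyde (0.76), Aldh7a1 of lysine breakdown (0.78) and Aldh4a1 of proline breakdown (0.78). Aldh5a1 was low, with strain means from 0.445 to 1.1 scaled TPM and a strain share of 0.692, and the added 0.5 narrows its range. All 4 passed the strain test, but among strains whose libraries carried title numbers 20 or more apart Akr1a1 (adjusted p = 0.132) and Aldh4a1 (0.464) did not.

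Of the 6 redox enzymes, Txnrd1 (ENSMUSG00000020250), the cytosolic thioredoxin reductase, varied most. Over the 95 libraries it ran from 3.74 to 41.4 scaled TPM. CC043 read 41.4 and 34.4, while CC044 read 4.53 and 3.74 and CC009 read 4.06 and 4.43. CC044 (4.13 ± 0.556, SD, n = 2) and CC043 (37.9 ± 4.94, n = 2) differed by 3.05 on the log2 scale, with a strain share of 0.796 (adjusted p = 1.16e-13, limma). Of the 20 genes most like Txnrd1 over strains, 14 lie on its own chromosome 10, which holds 4.68% of all genes tested. The first 3 were the pseudogene Gm10146 (r = 0.83), Polrmt (0.77) and E130317F20Rik (0.75). Gstm7 (12 of 20), Aldh3a1 (11), Gstm4 (10) and Gstp2 (8) also had many of their most alike genes on their own chromosome, whereas Gclc, Gstp1 and Aldh3b1 had none.

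Nqo1, a quinone reductase, read 10.6 and 12.3 scaled TPM in CC043, its highest strain, and 3.43 and 3.65 in CC053, its lowest (log2 range 1.56, adjusted p = 5.09e-05, limma). Gclm, the modifier subunit of the enzyme that starts glutathione synthesis, read 27.9 and 24.0 in CC003 and 5.7 and 3.45 in CC071 (2.41, adjusted p = 1.21e-07). CC030 reached a higher Gclm mean (29.6) through 1 library at 46.6, the other being 12.6. Hmox1 read 214 and 71.8 in CC030, 157 and 55 in CC051 and 180, 104, 72.0 and 72.6 in CC008, but 38.3 and 36.5 in CC061 (range 1.72, adjusted p = 6.66e-04). The high readings of CC030 and CC051 came from the libraries with the low osteoblast scores given above, and without both strains the range was 1.4 (adjusted p = 5.19e-05). Srxn1, which repairs overoxidised peroxiredoxins, read 1.45 and 1.89 in CC043 and 0.278 and 0.525 in CC013 (1.27, adjusted p = 0.0363). Its call was lost without the filter on low values (adjusted p = 0.0623), without any one replicate number (0.0598 to 0.247) and among strains with title numbers within 5 (0.176). Gclc, the catalytic partner of Gclm, read 16.1 and 5.84 in CC030 and had a strain share of 0.115. Among strains with title numbers 20 or more apart, Nqo1 (adjusted p = 0.0554), Hmox1 (0.161), Gclm (0.104) and Srxn1 (0.333) did not pass.

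The 6 enzymes are known targets of one factor, so all 15 pairs were compared over the 42 strain means, with two-sided permutation p-values adjusted over the 15 pairs. Hmox1 and Gclc rose together (r = 0.70, raw p = 1e-05, the smallest 100000 permutations can give, adjusted p = 0.00015; rho = 0.57, raw p = 0.00013, adjusted p = 0.00165). Without CC008 and CC030, the strains farthest from the median of Hmox1, r was 0.57 (permutation, adjusted p = 0.003). Within strains whose title numbers lay within 5 of each other r was 0.64, and within those 20 or more apart it was 0.73. Nqo1 and Txnrd1 also rose together (r = 0.43, permutation p = 0.00431, adjusted p = 0.0323; rho = 0.55, p = 0.00022, adjusted p = 0.00165), but without CC043 and CC053, the strains farthest from the median of Nqo1, r was 0.37 (permutation p = 0.0172, adjusted p = 0.128), which did not pass. Within the close and the distant title numbers it was 0.57 and 0.35. The other 13 pairs had r between -0.04 and 0.23 and did not pass. Gclc and Gclm, which form 1 enzyme, had r = 0.20 (permutation, adjusted p = 0.358), and CC043 was highest in Nqo1, Txnrd1 and Srxn1 but not in Hmox1, Gclc or Gclm.

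**Figure D4:**
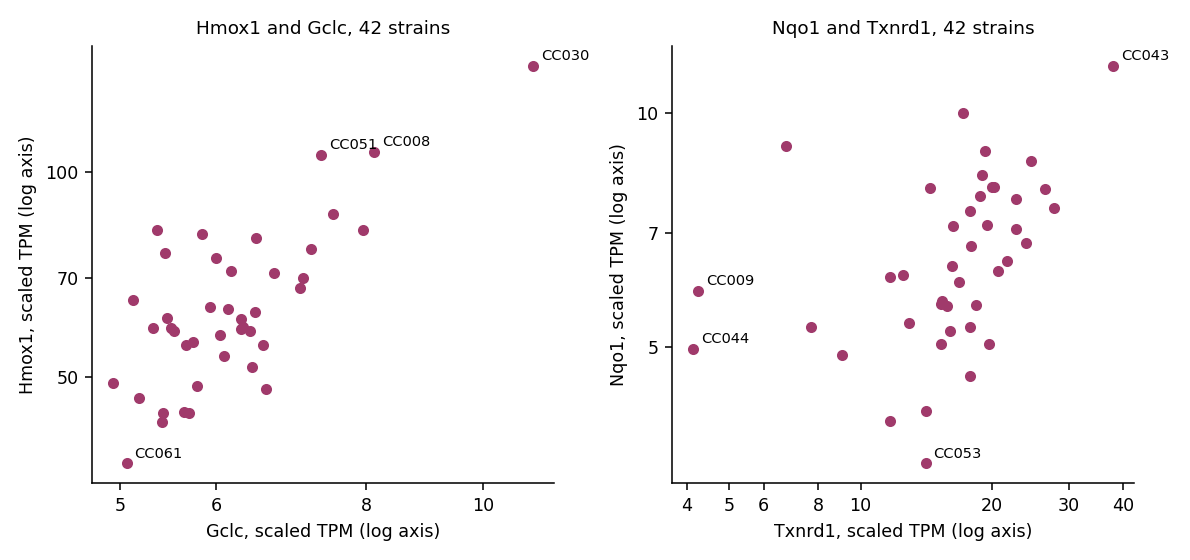
Strain means (scaled TPM, log axes) of Hmox1 against Gclc and of Nqo1 against Txnrd1, 1 point per strain for 42 strains. For Hmox1, CC030 lies far out, with CC008 (107) and CC051 (106) next; CC043 lies highest in Nqo1 and Txnrd1 (11.5 and 37.9).

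The genes most like each enzyme over the 42 strains differed. They were Ddx19a (r = 0.62), Ddx19b (0.56) and Zwint (0.54) for Nqo1, and Eea1 (0.76), Fam214b (0.70) and Gclc (0.70) for Hmox1. For Gclc they were Hmox1, the glutathione conjugate exporter Abcc1 (0.70) and Lhfpl2 (0.66). For Gclm they were Htra3 (0.56), Mindy1 (0.52) and Tbx15 (0.52), and for Srxn1 3300005D01Rik (0.63), Pp2d1 (0.55) and Bcl6b (0.53). Nqo1 and Ddx19a lie on the same chromosome, 8, with 30 protein-coding genes between them.

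Of the 2028 pairs of a tested gene and a replicated strain, 249 were higher than the mean of the other strains and 237 were lower (limma, Benjamini-Hochberg over all strains and genes). The background was 7.74% higher and 7.09% lower over all genes. CC030 had the most calls, 30 of 52 (57.7%; 30.3% of all genes were called in it, 16.2% higher and 14.1% lower). In CC030, 19 of the genes were higher. Akr1b8, a reductase of lipid aldehydes, read 96.0 and 29.5 scaled TPM there, 1.93 ± 0.28 (SE) log2 units above the other strains (adjusted p = 5.54e-07). Akr1c13 (1.82 ± 0.23, adjusted p = 1.97e-08) and Aldh3b1 (1.51 ± 0.22, adjusted p = 3.12e-07) followed. The others were Aldh1a3, Gstm6, Aldh1a1, Hmox1, Aldh3a1, Aldh1l1, Gstt1, Gclm, Gstt2, Gstt3, Aldh2, Gclc, Akr1b10, Aldh7a1, Akr1a1 and Akr1b3. In 3 of them 1 library lay above and the other below the mean of the other strains: Gclc (16.1 and 5.84, others 6.13), Gclm (46.6 and 12.6, others 14.1) and Akr1b3 (56.6 and 30.1, others 31.1). Lower were 11: Aldh1l2 (5.97 and 25.3 scaled TPM, -1.77 ± 0.26, adjusted p = 6.81e-07), Gstz1, Gstm7, Aldh18a1, Gstp2, Nqo1, Gstm4, Gstcd, Gstp1, Gstk1 and Aldh1b1. CC030 also had the highest macrophage marker sum and one of the lowest osteoblast scores (-2.11), and the part of these in its calls was not tested. CC008 followed with 18 higher and 10 lower genes (13.6% and 10.9% of all genes), CC038 with 18 and 6 (16.5% and 13.7%) and CC043 with 7 and 14 (15.2% and 14.2%).

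Each gene was set against the macrophage and the osteoblast marker scores over 42 strain means (limma slope, all genes adjusted together). The scores were not independent. Of the 14 macrophage markers, 11 fell with the osteoblast score (12.8% of all genes did). Of the 15 osteoblast markers, 6 fell with the macrophage score (10.3% of all genes). Akr1a1, Akr1b8, Aldh3b1 and Aldh1l2 were called with both scores, and these relations were not separated. With the macrophage score 7 genes rose, against 13.4% of all genes, and 2 fell, against 10.3%, so the numbers as such do not exceed the background. Aldh3b1, a membrane-associated dehydrogenase of lipid aldehydes, followed that score closely (r = 0.96, adjusted p = 6.5e-22), from 0.812 ± 0.12 (n = 4) in CC041 to 6.8 in both CC030 libraries. Akr1c13 (r = 0.72, adjusted p = 8.38e-07), Akr1a1 (0.60, adjusted p = 8.86e-04), Aldh1l1 (0.56, adjusted p = 9.13e-04), Aldh2 (0.43, adjusted p = 0.0229), Akr1b8 (0.42, adjusted p = 0.0238) and Gstm1 (0.40, adjusted p = 0.0344) rose as well. Aldh18a1 (-0.48, adjusted p = 0.00724) and Aldh1l2 (-0.47, adjusted p = 0.00992) fell, and these 2 followed each other with r = 0.71. On deposited TPM without scaling 12 genes rose and 1 fell, against 20.5% and 2.02% of all genes. Without CC030 and CC071, the strains with the lowest osteoblast scores, 4 rose and 0 fell, against 9.53% and 4.5% of all genes. Calls lost by limma were those of Aldh2 (adjusted p = 0.187), Gstm1 (0.0792), Akr1b8 (0.373), Aldh18a1 (0.108) and Aldh1l2 (0.216). The slope of Gstm1 moved little (0.17 to 0.16 log2 units per unit of score), while those of Akr1b8 (0.23 to 0.10) and Aldh1l2 (-0.24 to -0.12) shrank.

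With the osteoblast score 5 genes rose (background 11.6%) and 8 fell (12.8%). Akr1b8 fell most closely (r = -0.76, adjusted p = 3.5e-07), from a mean of 62.8 scaled TPM in CC030 (96.0 and 29.5) to 7 ± 0.214 (n = 3) in CC075. Its slope was -0.55 log2 units per unit of score, and -0.4 without CC030 and CC071 (limma, adjusted p = 4.17e-04). Hmox1 fell with a slope of -0.29 log2 units per unit of score (r = -0.60, adjusted p = 4.05e-04), and the slope was -0.29 without CC030 and CC071 (adjusted p = 0.00148). That alternative kept CC051, the strain with the next lowest score (-1.27). Its first library, at a score of -2.92, gave the high Hmox1 reading described above. Akr1a1 (-0.55), Gclc (-0.47), Aldh1a1 (-0.42), Aldh3b1 (-0.41), Aldh7a1 (-0.39) and Gsto1 (-0.38) also fell. Aldh9a1, an aminoaldehyde dehydrogenase, rose most clearly (0.54, adjusted p = 0.00247), followed by Gstz1 (0.46), Aldh1l2 (0.41), Gsto2 (0.41) and Aldh5a1 (0.39). Without CC030 and CC071, 2 genes rose and 5 fell, against 6.05% and 5.25% of all genes, and Gstp1 (adjusted p = 0.0233) and Aldh4a1 (0.0209) were newly among those falling. On deposited TPM 3 rose and 3 fell, against 6.53% and 6.5%. Akr1a1 (adjusted p = 0.279), Gclc (0.0948), Aldh1a1 (0.153), Aldh3b1 (0.48), Aldh7a1 (0.42), Aldh1l2 (0.936), Gsto2 (0.153) and Aldh5a1 (0.2) lost their calls without the 2 strains. The slopes of Gsto2 (0.16 to 0.14), Aldh5a1 (0.10 to 0.09) and Aldh1a1 (-0.45 to -0.38) moved little, while those of Aldh1l2 (0.28 to 0.02), Aldh3b1 (-0.36 to -0.17) and Akr1a1 (-0.09 to -0.04) shrank.

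**Figure D5:**
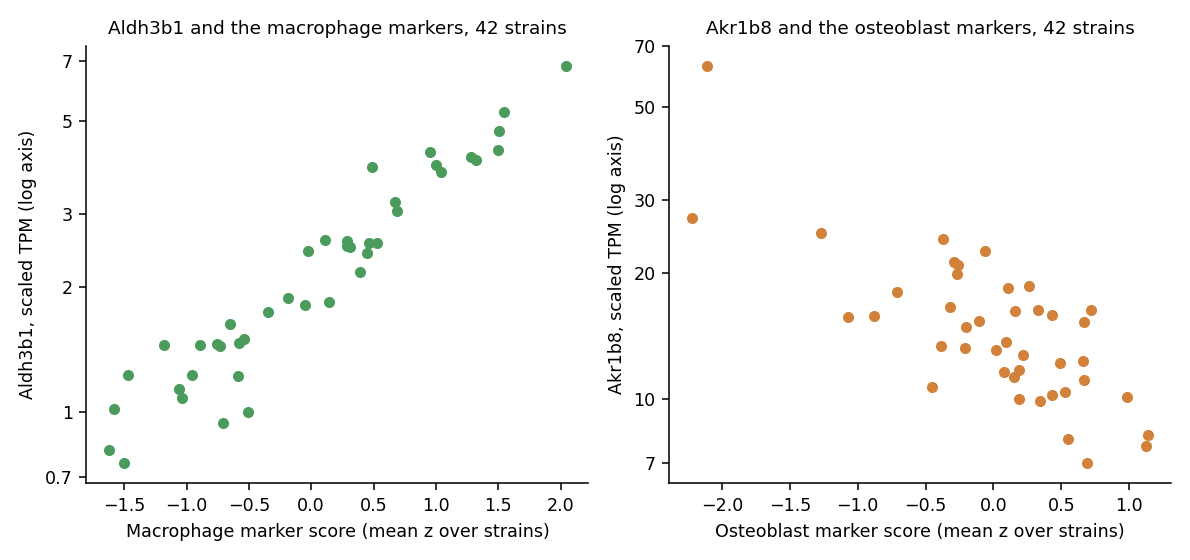
Strain means of Aldh3b1 against the macrophage marker score and of Akr1b8 against the osteoblast marker score (scaled TPM, log axes; scores are the mean z over the markers), 1 point per strain for 42 strains. Aldh3b1 rises along its whole range (r = 0.96), and Akr1b8 falls (r = -0.76) with CC030 at 62.8 standing above all other strains.

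The rest of the pathway was read from lists of named genes, chosen with earlier results of these data known. Their counts stand beside a background of 81.6% of all genes and 86.1% of protein-coding ones passing the strain test. All 9 Nrf2 regulators passed the strain test, with a median log2 range of 0.91 (1.02 over all genes). Keap1 had the narrowest, from 10.8 to 15.1 scaled TPM (log2 range 0.46), and Nfe2l1, Maff and Bach1 had the widest (1.45, 1.39 and 1.23). Nfe2l2 itself ranged by 1.13, from 32.6 ± 2.97 in CC009 to 78.1 ± 43.5 in CC051 (n = 2 each). All 21 genes of glutathione metabolism passed. Chac1, which breaks glutathione down, varied most (1.01 ± 0.288 in CC043, 60.4 ± 37 in CC016, n = 2 each; adjusted p = 0.00112), followed by the secreted peroxidase Gpx3 (range 2.81) and the cystine carrier Slc7a11 (2.47). All 6 genes of a list of membrane-bound transferases and other eicosanoid enzymes passed (Hpgds in it is a cytosolic transferase), and Alox5ap, Hpgds and Mgst1 rose with the macrophage score (r = 0.98, 0.96 and 0.69). Of 16 thioredoxin, peroxiredoxin and dismutase genes 14 passed. The thioredoxin inhibitor Txnip stood out in CC043, at 77.6 ± 5.33 against a median of 3.57, in the strain where Txnrd1 was highest. Sod3 (range 2.71) and Sesn2 (1.94) came next. All 7 NADPH-supplying genes passed, with Pgd ranging widest (2.22), then Me1 (1.55) and G6pdx (1.22). Of 20 tested genes of other detoxification steps 19 passed, 7 rose with the macrophage score (13.4% of all genes) and 7 fell with the osteoblast score (12.8%). Adh1 (3.04), Adh7 (2.68) and Ephx2 (2.39) varied most.

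Of 10 tested genes that act around retinoic acid, 9 passed. Crabp1, which binds retinoic acid in the cytosol, ranged from 1.77 ± 0.944 in CC007 to 94.8 ± 33.9 in CC071, the strain lowest in Aldh1a2. Crabp2 (3.49) and Cyp26b1, which degrades retinoic acid (2.45), came next. All 5 tested genes of the Ah receptor list passed, with Cyp1b1 widest (1.52 ± 0.141, n = 2, in CC019 and 25.1 ± 11.3, n = 4, in CC038), followed by Ahr (2.20) and Ahrr (1.54). Of 10 heme and iron genes 9 passed. The widest was Trf (0.287 ± 0.0814 in CC037 and 63.3 ± 13.7 in CC030, n = 2 each), which rose with the macrophage score (r = 0.87), followed by Hp (4.69) and Slc40a1 (2.34). The heme oxygenase Hmox2, encoded apart from Hmox1, ranged from 12.5 to 28.3 scaled TPM.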

How the data were processed

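Gene-level expression was compared between strains for 66 detoxification genes. The authors deposited TPM per transcript: despite a name that speaks of counts, every column adds up to 1000000. Per the submitters' processing notes, Bowtie and the mouse build mm9 were used; which tool divided reads among transcripts was not given in the sources used here. Of 94545 transcripts, 91225 matched GENCODE M21 identifiers (GRCm38) and were summed into 37945 genes (194 transcripts for the 66 genes); 3320 did not match, and 1 further line named no transcript. Coordinates are printed only for RefSeq promoter windows, in their own build. Depth is not in TPM and was estimated from the spacing of low values (a median of 73.0% of such values within 0.1 of a whole read, 20% by chance).

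TPM values were divided by a library factor (trimmed mean of log ratios, 0.774 to 1.27) and analysed as log2(scaled TPM + 0.5), which understates changes of low genes. R 4.3.3 with limma 3.58.1 tested all 15760 genes in 39 strains with 2 or more libraries (92 libraries, 53 residual degrees of freedom), with Benjamini-Hochberg adjustment at 0.05. The strains called highest and lowest are those of the highest and lowest mean log2 value. Slopes used 1 mean for each of 42 strains, and a marker was left out of its own score. The procedure was tested on simulated data. Reads were aligned to 1 reference build for all strains, and how founder variants bear on alignment was not tested. Alternatives were other scalings, pseudocounts (0.1 and 1), filters, left-out libraries, title numbers within 5 or 20 or more apart, 1 run only, and depth or marker scores as covariates. Genes named with full values were the 6 redox enzymes, the 10 widest, the 5 narrowest and the 8 highest genes, the genes called in the strain with most calls, and the 3 widest of each pathway list; other genes named were chosen after their values were seen. The genes and lists were chosen with earlier results of these data known.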

Additional observations from a re-analysis of the deposited data

Results flagged for a closer look

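In each strain with 4 libraries, every tested gene was checked for a library lying far from the other 3 relative to the strain's range. Chance alone flags about 1 in 20 groups. With 312 groups checked, the flags listed here are about as many as chance alone would give. Where the other 3 libraries are listed at 0, any reading above 0 is flagged, as for Akr1c13 and Akr1b7 below. In CC015, replicate 1 was high for Txnrd1 (37.2 scaled TPM; others 18.2 to 21.2), Gclm (24.8; others 13.4 to 13.5) and Aldh1a3 (5.79; others 0.906 to 1.5), and replicate 3 was low for Aldh2 (37.4; others 48.5 to 50.5) and Aldh5a1 (0.42; others 0.538 to 0.547). In CC041, replicate 3 was high for Gstm2 (55.3; others 34.4 to 37.6), Gstt1 (7.62; others 3.15 to 3.85), Gstt3 (5.5; others 2.61 to 2.95) and Akr1c13 (0.0423; others listed at 0), and replicate 1 was high for Aldh16a1 (6.61; others 4.92 to 5.09). In CC038, replicate 1 was high for Nqo1 (7.78; others 3.56 to 4.18), and replicate 4 was high for Aldh1l2 (64.9; others 32.5 to 35.9) and Akr1b7 (0.0735; others listed at 0) and low for Aldh7a1 (22.5; others 27.5 to 28.4). In CC008, replicate 2 was low for Aldh3b1 (2.56; others 4.7 to 4.93) and replicate 4 was high for Gsta3 (0.992; others 0.491 to 0.562). In CC004, replicate 2 was high for Hmox1 (81.9; others 50.3 to 52.1).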

How the results depend on the processing

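No slope or correlation that passed the threshold changed sign in any alternative run; some weak correlations did. The count of genes past the strain test stayed between 46 and 50 of 52 under other scalings and pseudocounts, without replicate 3 or 4, on 1 run and with depth or marker covariates. With every replicate of one number left out it ran from 29 to 48 (all genes 35.6% without replicate 1, 41.3% without 2, 79.3% without 3 and 80.8% without 4). Without replicate 1 or 2 most strains keep a single library that is assumed to vary like the others. Higher strain calls ran from 89 to 245 and lower ones from 80 to 230. In strains with title numbers 20 or more apart the median strain share was 0.564 (all genes 0.354). There, 73 pairs were higher and 61 lower (7.02% and 5.87%, against 3.39% and 2.93% over all genes). Within 5 the median strain share was 0.851 (all genes 0.699). Deposited TPM gave 3 rising and 3 falling genes for the osteoblast score and 12 and 1 for the macrophage score. Protein-coding rescaling gave 2 rising with the osteoblast score (8.44% of all genes tested). A mean of at least 1 TPM gave 3 of 42 (14.2% of all genes tested). Without CC030 and CC071 the osteoblast counts were 2 rising and 5 falling, and the macrophage counts 4 and 0. The shares of all genes for deposited TPM and without these strains are given in the Results. Of the 15 redox pairs, 1 passed without the 2 farthest strains and 4 on deposited TPM. The cause of these moves was not tested. Between the runs of the repeated CC030 sample, the tested genes differed by a median of 0.23 and at most 0.54 on the log2 scale. No paired analysis was possible because the labels give no replicate numbers shared between strains. The alternative without CC030 and CC051 was chosen after seeing the data.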

Other observations

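Members of these families that lie together in the genome were set against the rest, as a description. In RefSeq (GRCm38.p6), 42 of the 66 genes fall into 10 clusters in which at most 5 other protein-coding genes separate neighbours, such as the Akr1c genes on chromosome 13 and the Akr1b genes on chromosome 6. Of the 40 pairs of tested genes within a cluster, 6 (15%) had r above 0.5 over the 42 strain means, and of the 1286 other pairs 18 (1.4%) did. Within clusters r ran from -0.66 to 0.84, with a median of 0.04, which was also the median of the other pairs. Some clustered genes share sequence, and a gene enters several pairs, so the pairs are not independent.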
